A study of Mus musculus with 8 samples.

Results

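The calcium/calmodulin-dependent protein kinases were followed as 10 genes: the 4 subunits of CaMKII (Camk2a, Camk2b, Camk2d and Camk2g), the CaMKII inhibitor Camk2n1, the upstream kinases Camkk1 and Camkk2, their substrates Camk1d and Camk4, and the pseudokinase Camkv. They were chosen by name, through the Ensembl identifiers of the count table and their GENCODE symbols. All 10 were among the 22430 genes listed and all 10 were among the 16730 genes tested. Polyadenylated RNA was sequenced from brain tissue of 8 male C57Bl/6JRj mice. Of these, 4 were young adults aged 6 months (6m) and 4 were old, at 24 months (24m). Each library came from 1 animal. The labels call the tissue both whole brain and brain hemisphere, and the methods of the study describe dissection of whole hemispheres, so that brain regions and cell types were mixed. No animal carried a transgene or received a treatment. In such bulk samples, fewer cells of a type and less RNA per cell cannot be told apart.

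Calmodulin binds calcium that enters a neuron during activity, and calcium-loaded calmodulin switches these kinases on. CaMKII is a multimer of subunits that phosphorylate each other on a threonine next to the calmodulin-binding stretch, which keeps the enzyme active after calcium has fallen, and it is best known for its part in long-term potentiation at excitatory synapses. CaMKK1 and CaMKK2 act in a cascade, in which they phosphorylate CaMKI and CaMKIV, and CaMKK2 also phosphorylates AMP-activated kinase.

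The stretches of coding sequence at the centre of this regulation are shown for 3 CaMKII subunits and for the inhibitor, because they are the sites through which the kinase is kept active and is inhibited. That of Camk2a is not shown here. They were read from GENCODE transcripts on GRCm39, are written 5′ to 3′ on the coding strand, and hold 45 bases for each kinase and 63 bases for the inhibitor. Capitals mark the codon of the autophosphorylated threonine, residue 287 in each of these subunits, and in the inhibitor the codons of residues 43 to 52, within the stretch that binds the catalytic site of CaMKII.
Camk2b (chr11:5938976-5939020, minus strand, exon 11): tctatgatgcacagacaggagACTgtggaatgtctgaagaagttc
Camk2d (chr3:126591369-126591413, plus strand, exon 11): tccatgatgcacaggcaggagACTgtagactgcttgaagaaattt
Camk2g (chr14:20810486-20810530, minus strand, exon 11): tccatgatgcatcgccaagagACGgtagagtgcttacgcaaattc
Camk2n1 (chr4:138182623-138182662 in exon 1 and chr4:138184029-138184051 in exon 2, plus strand): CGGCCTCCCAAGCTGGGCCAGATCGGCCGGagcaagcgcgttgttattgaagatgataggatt

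The subunits are close paralogs, which bears on how reads were assigned. Between pairs of CaMKII subunits, 76.6% to 79.5% of aligned coding bases and 83.7% to 90.1% of aligned residues were identical in the canonical transcripts. No stretch of 100 bases was shared by the coding transcripts of any 2 of the 10 genes, while reads were sequenced with 151 cycles from each end. Camk2a (ENSMUSG00000024617) lies on chromosome 18, 61058473 to 61121224 (GRCm39), Camk2b (ENSMUSG00000057897) on chromosome 11, 5915791 to 6016362, Camk2d (ENSMUSG00000053819) on chromosome 3, 126389945 to 126639982, and Camk2g (ENSMUSG00000021820) on chromosome 14, 20784942 to 20844541. Exons of genes on the other strand covered 12.6% of the exonic bases of Camk2b and 4.72% of those of Camk2g. The share was 0 for Camk2a and Camk2d. Among the other members it was at most 6.16%, in Camkk2. How the counting used strand was not stated.

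Library totals were 63460940 to 103462414 counts. Replicate 1 of 24m was the deepest library, and in each of the 7 genes called below it was the 24m library nearest to 6m. Results are therefore also given without it. Levels are in CPM (counts scaled to the library total) corrected by TMM factors (trimmed means of log ratios between libraries), and differences are log2 fold changes of 24m over 6m with their standard error (SE) from the quasi-likelihood test of edgeR. The thresholds of a call were 0.05 for the p adjusted over all genes (Benjamini-Hochberg) and 0.58 for the size of the log2 fold change.

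Of the 10 genes, 6 were called higher at 24m (Camk1d, Camk2a, Camk2d, Camk2b, Camkk2 and Camkk1) and 1 was called lower (Camk2n1), against 25.3% of all tested genes called higher and 18.3% called lower. Camk2g and Camkv passed the adjusted p but stayed under the fold-change threshold, and Camk4 passed neither. All 24m libraries lay above all 6m libraries in 8 genes, which held for 28.4% of tested genes, and below them in 1 gene, which held for 26.8%. The median log2 fold change was 0.75 over the 10 genes and -0.0034 over all tested genes. The 2 ages overlapped in Camk4. Of all called genes 58.1% were higher at 24m, against 75.7% with library totals alone and 47.9% after quantile normalization. The 7 called members were called in the same direction under both.

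**Figure D1:**
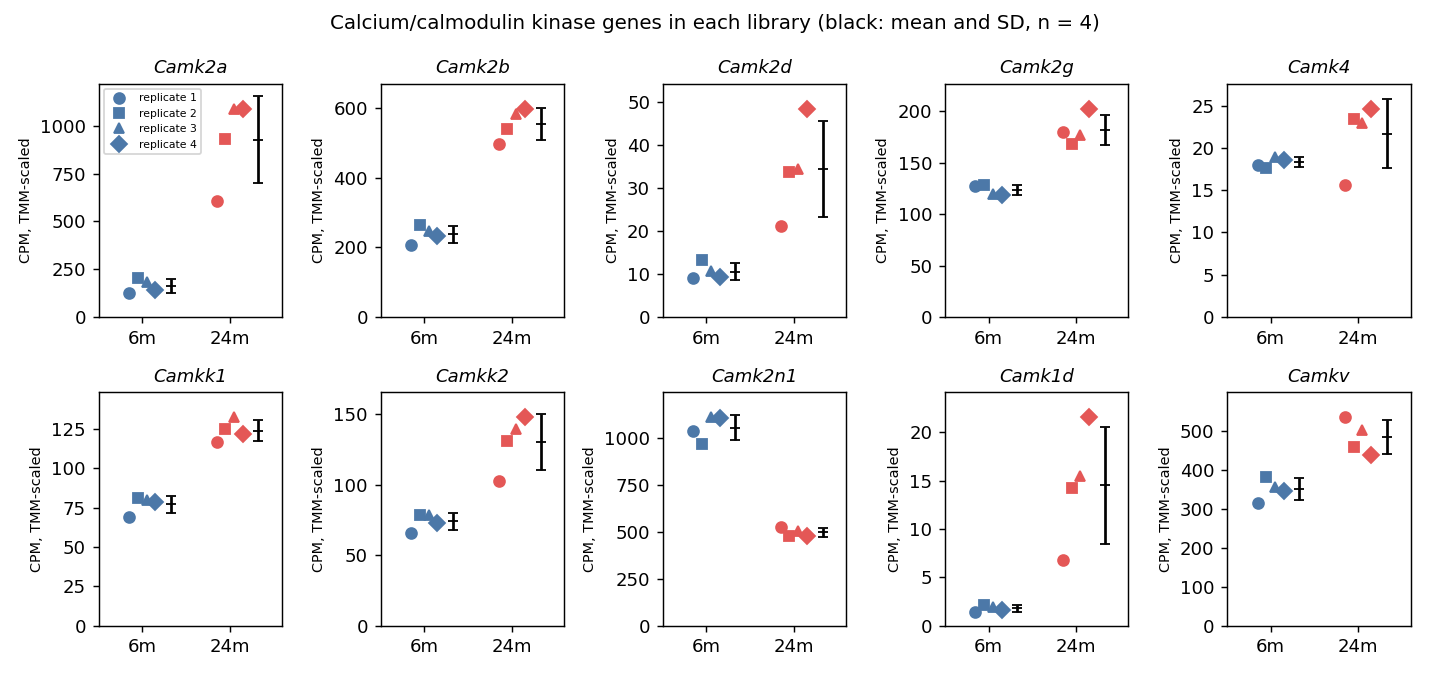
TMM-scaled CPM (linear axes from 0) of each of the 10 genes in every library, by age (blue 6m, red 24m), with replicate number as marker shape and the mean and SD of 4 libraries in black. The ages separate in every gene but Camk4, Camk2n1 is the gene that is lower at 24m, and 24m replicate 1 (circle) lies nearest to 6m in Camk2a, Camk2b, Camk2d, Camkk1, Camkk2, Camk1d and Camk2n1.

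Camk2a encodes the alpha subunit, which in brain is made mainly by excitatory neurons of the forebrain and whose mRNA is transported into dendrites. Its level was 123, 204, 185 and 143 CPM in 6m replicates 1 to 4, and 606, 929, 1087 and 1091 CPM in 24m replicates 1 to 4. The lowest 24m library thus stood well above the highest 6m library. The log2 fold change was 2.50 ± 0.22 (SE; edgeR adjusted p = 4.03e-05), a 5.66-fold higher level, and 98.9% of tested genes had a smaller fold change. Without 24m replicate 1 it was 2.68.

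Camk2b encodes the beta subunit, which binds actin filaments and anchors the enzyme in spines. Its level was 205, 263, 248 and 232 CPM in 6m and 495, 540, 584 and 598 CPM in 24m, again with no overlap. It changed by 1.23 ± 0.10 on the log2 scale (edgeR adjusted p = 3.28e-05; 1.30 without 24m replicate 1). Its fold change was smaller than that of Camk2a, a difference tested further on as a ratio.

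Camk2d, the delta subunit, is the main form in heart and a minor one in brain. It had 9.04, 13.2, 10.7 and 9.32 CPM in 6m and 21.1, 33.8, 34.4 and 48.5 CPM in 24m. The 24m libraries were spread over a wider range than those of 6m, with replicate 1 lowest and replicate 4 highest. It changed by 1.71 ± 0.23 on the log2 scale (edgeR adjusted p = 0.000279; 1.90 without 24m replicate 1).

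Camk2g, the gamma subunit, has been linked to carrying calmodulin to the nucleus. It had 127, 128, 120 and 119 CPM in 6m and 180, 168, 177 and 203 CPM in 24m. The ages did not overlap, but the log2 fold change of 0.56 ± 0.08 (edgeR adjusted p = 0.000353) was just under the threshold. It passed the threshold without 24m replicate 1 (0.58) or 24m replicate 2 (0.60), and with the length trend removed it was 0.21 and missed the adjusted p as well (0.0591 by edgeR).

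The subunits were compared as ratios of counts within a library, which do not depend on how libraries are scaled. The log2 ratio of Camk2a over Camk2b was -0.55 ± 0.19 over the 4 libraries of 6m and 0.71 ± 0.28 over the 4 of 24m (mean ± SD). The means differed by 1.26 (p = 0.0286, two-sided exact permutation test). That p is the smallest that 4 against 4 libraries allow, and it became 0.0343 after adjustment over the 6 pairs. Camk2a also rose relative to Camk2g by 1.93 and relative to Camk2d by 0.83 (log2), each with the same exact permutation p and no overlap. Camk2b rose relative to Camk2g by 0.67 and Camk2d relative to Camk2g by 1.10, again with p = 0.0286 (exact permutation) and no overlap. The remaining pair, Camk2b over Camk2d, overlapped between ages, with 4.31 to 4.63 in 6m and 3.62 to 4.55 in 24m and a difference of -0.43 (exact permutation p = 0.114). Without 24m replicate 1, which had the highest value of this ratio among 24m libraries, the difference was -0.59 and passed (adjusted exact p = 0.0286), and without 24m replicate 4 it was -0.28. Camk2d over Camk2g passed only with all 6m libraries, since its adjusted exact p was 0.0686 without any one of them.

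Expressed per kilobase of exon, so that the genes can be set beside each other, Camk2a made up 31.2% to 39.5% of CaMKII counts in 6m libraries and 53.6% to 65.0% in 24m libraries. The share of Camk2b was 34.1% to 36.6% in 6m and 23.3% to 29.3% in 24m. For Camk2g the share was 25.5% to 33.1% in 6m and 10.9% to 16.4% in 24m. Camk2d held 0.793% to 0.923% in 6m and 0.673% to 1.02% in 24m. At 6m the alpha, beta and gamma subunits thus had similar levels per kilobase, with mean shares of 35.8% ± 3.93, 35.0% ± 1.08 and 28.3% ± 3.53 (SD, n = 4), and at 24m alpha had 61.3% ± 5.18 of the pool. These shares depend on the gene length used, which is taken up in the closing section, while the log ratios use no length. The ratios were not recomputed with a trend over length or GC content removed. Fold changes were: with the length trend removed, Camk2d was at 0.96 and Camk2g at 0.21 (log2). With the GC trend removed, Camk2b was at 1.37 and Camk2d at 1.39, against 1.23 and 1.71 with neither removed.

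Camk2n1 (ENSMUSG00000046447, chromosome 4, 138181407 to 138187434, GRCm39) encodes a small protein of 78 residues that inhibits CaMKII. It had 1038, 967, 1109 and 1105 CPM in 6m and 526, 478, 505 and 477 CPM in 24m. The libraries within each age lay close together and the ages were far apart. The log2 fold change was -1.09 ± 0.08 (SE; edgeR adjusted p = 2.42e-05), and it was -1.09 without 24m replicate 1 too. Camk2n1 was the most abundant of the 10 genes per kilobase of exon in all 8 libraries but 24m replicates 3 and 4, with 204 to 234 CPM per kilobase in 6m and 101 to 111 in 24m. The sum of the 4 CaMKII subunits was 41.0 to 53.6 CPM per kilobase in 6m and 117 to 178 in 24m. The inhibitor transcript therefore stood at 4.80 ± 0.715 times the summed kinase transcripts in 6m and at 0.696 ± 0.171 times in 24m (SD, n = 4), with 0.946 in 24m replicate 1 and 0.565 to 0.659 in the other 24m libraries. Both the rank and the ratio depend on the length used. With the longest coding transcript the ratio was 2.34 in 6m and 0.359 in 24m, and the 24m mean of Camk2n1 (106 CPM per kilobase) was below those of Camk2a (174) and Camkv (128). No test was made on this sum. Camk2n2, the second CaMKII inhibitor gene, stood at 220 ± 22.8 CPM in 6m against 153 ± 18.4 at 24m, and its log2 fold change of -0.52 ± 0.11 (edgeR adjusted p = 0.00263) stayed under the threshold.

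**Figure D2:**
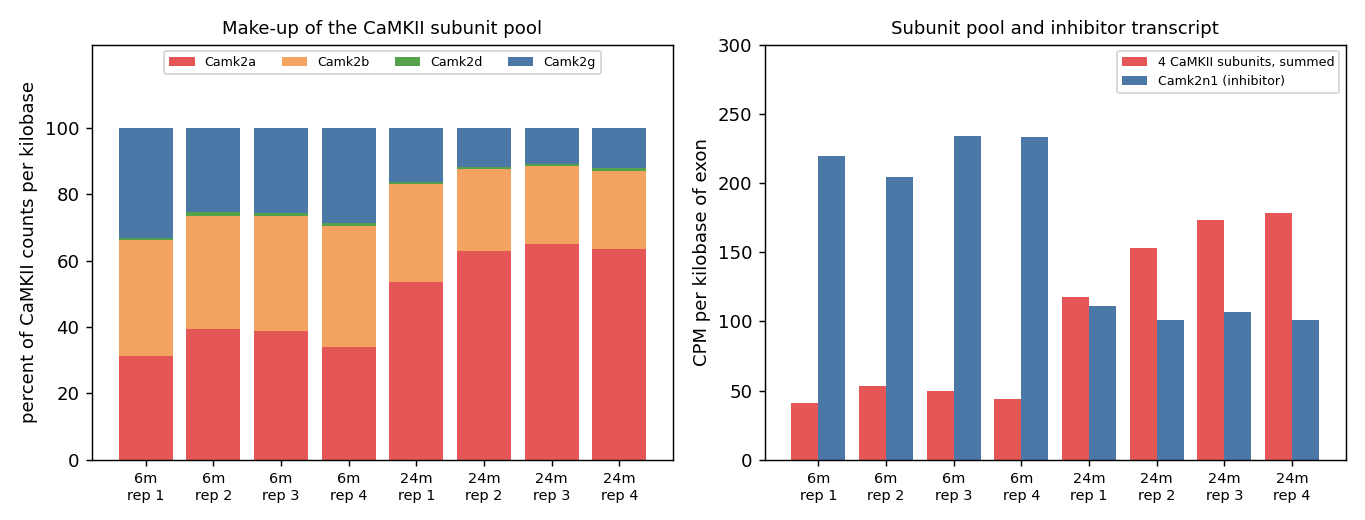
Left, share of each CaMKII subunit in the summed CaMKII counts per kilobase of exon (percent), one stacked bar for each library. Right, TMM-scaled CPM per kilobase of the 4 subunits summed (red) and of Camk2n1 (blue) in each library: the inhibitor bar is the taller one in all 6m libraries, and the kinase bar is the taller one in all 24m libraries.

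Of the upstream kinases, Camkk1 (ENSMUSG00000020785, chromosome 11, 72909421 to 72933202) encodes CaMKK alpha. It had 69.4, 81.3, 79.8 and 78.5 CPM in 6m and 117, 125, 132 and 122 CPM in 24m. The ages were separate and the spread within each was small, and the log2 fold change came to 0.68 ± 0.08 (adjusted p by edgeR = 0.000138; 0.73 without 24m replicate 1). Camkk2 (ENSMUSG00000029471, chromosome 5, 122869233 to 122917739), which encodes CaMKK beta, had 66.1, 78.7, 78.5 and 72.6 CPM in 6m and 103, 131, 140 and 148 CPM in 24m. It changed by 0.82 ± 0.12 on the log2 scale (edgeR adjusted p = 0.000389; 0.94 without 24m replicate 1). Both genes of the pair were thus called higher, but neither was with the length trend removed (0.56 for Camkk1 and 0.37 for Camkk2).

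Their substrates differed. Camk1d (ENSMUSG00000039145, chromosome 2, 5298268 to 5719375) encodes CaMKI delta. It had the fewest counts of the 10 genes, 91 to 150 in each 6m library. Its level was 1.39, 2.12, 1.97 and 1.66 CPM in 6m and 6.74, 14.2, 15.5 and 21.5 CPM in 24m. It had the largest fold change among them, a log2 value of 3.02 ± 0.33 (edgeR adjusted p = 8.89e-05; 3.28 without 24m replicate 1), which ranked 55 among the 16730 tested genes. The 24m libraries of Camk1d were spread widely, with replicate 1 lowest and replicate 4 highest, and all lay above 6m. Camk4 (ENSMUSG00000038128, chromosome 18, 33067984 to 33328821) encodes CaMKIV, a mostly nuclear kinase that phosphorylates the transcription factor CREB and is abundant in cerebellar granule cells. It had 18.0, 17.7, 18.9 and 18.6 CPM in 6m and 15.7, 23.4, 23.0 and 24.7 CPM in 24m. Replicate 1 of 24m lay below all 6m libraries and the other 24m libraries above them. The fold change, 0.24 ± 0.14 on the log2 scale, did not pass (edgeR adjusted p = 0.145), and without 24m replicate 1 it was 0.39 with an adjusted p of 0.000792, still under the fold-change threshold. Its sign turned when a trend over gene length (-0.26) or GC content (-0.047) was removed.

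Camkv (ENSMUSG00000032936, chromosome 9, 107811702 to 107826897) encodes a pseudokinase of the family that sits on vesicles and binds calmodulin without kinase activity. It had 315, 383, 357 and 346 CPM in 6m and 535, 460, 503 and 437 CPM in 24m, with replicate 1 the highest of the 24m libraries. On the log2 scale the fold change came to 0.47 ± 0.10 (edgeR adjusted p = 0.00228; 0.43 without 24m replicate 1). The ages did not overlap, and the change stayed under the threshold.

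**Figure D3:**
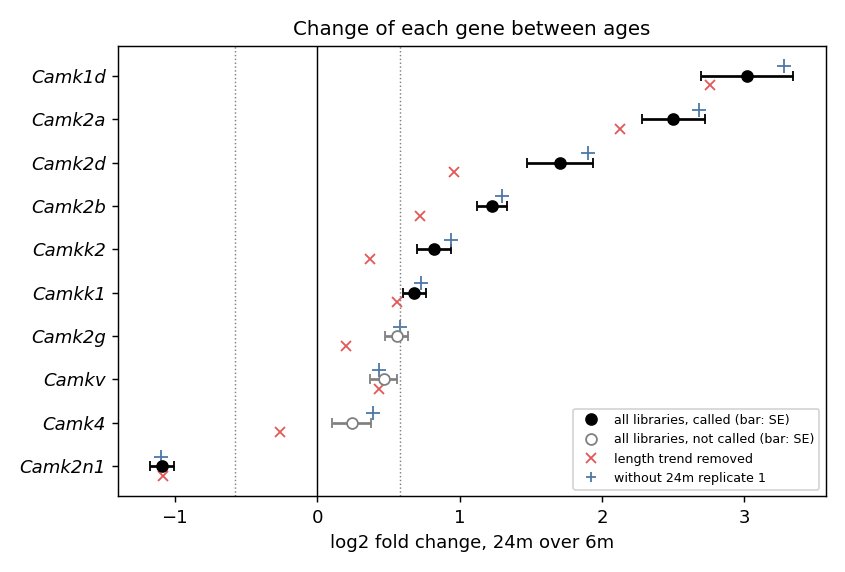
Log2 fold change of 24m over 6m for each gene (circles; bars are SE; filled where called), with dotted lines at -0.58 and 0.58. Crosses give the value after a trend over exonic length was removed and plus signs the value without 24m replicate 1: all genes but Camk4 keep their sign in both, and Camk1d, Camk2a, Camk2d and Camk2b stay above 0.58 in both.

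Fold changes moved with gene length in these libraries: over all tested genes, the Spearman rho between log2 fold change and exonic length was 0.42. It was -0.0084 after a smooth length trend was removed from each library. The 10 genes have 4732 to 26696 exonic bases. With the trend removed, 4 of them were called higher and 1 lower. Camk1d (2.76), Camk2a (2.12), Camk2d (0.96) and Camk2b (0.72) were called higher, and Camk2n1 (-1.09) was called lower. Camkk1 (0.56) and Camkk2 (0.37) fell under the fold-change threshold but passed the adjusted p (0.000213 and 0.002). Camk2g was at 0.21 (adjusted p = 0.0591). How far length contributed to each change as counted was not tested.

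The members' promoters were looked at because most of the genes moved together. RefSeq promoters of 300 bases (around the start of transcription, GRCm38.p6) were searched for 6 of the 10 genes, with 7 entries. No promoter was matched for Camk2g and Camk2n1. Those of Camk2a and Camk4 were not included in the search. The motif counts that follow therefore do not cover these genes. The GC box GGGCGG, searched on both strands, was found in 7 of the 7, against 35.7% of 32851 promoters. The GC content of these windows was 48.7% to 77.3%, and Camk1d had more than 1 entry. Whether promoters of like GC content hold this box as often was not tested. The half-site TGACG of the cAMP response element, the sequence bound by CREB, was found on either strand in 1 of the 7, that of Camkk1, against 20.8% of all promoters. The full element TGACGTCA, which contains that half-site, was in none of the 7 and in 1.79% of all promoters, and the TATA box TATAAA was in none of the 7 and in 13.6%. The promoter of Camkk1 is shown as the one with both shorter motifs, and that of Camk2b as the CaMKII subunit with overlapping GC boxes, with matches of both motifs in capitals.
Camkk1 (GRCm38.p6, chr11:73018738-73019037, plus strand): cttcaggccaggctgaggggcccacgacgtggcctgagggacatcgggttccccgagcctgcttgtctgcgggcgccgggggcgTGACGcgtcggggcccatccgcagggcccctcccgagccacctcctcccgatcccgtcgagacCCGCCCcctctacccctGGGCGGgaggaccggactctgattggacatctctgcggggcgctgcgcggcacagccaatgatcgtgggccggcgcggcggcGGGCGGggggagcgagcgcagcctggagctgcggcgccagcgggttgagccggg
Camk2b (GRCm38.p6, chr11:6065699-6065998, minus strand): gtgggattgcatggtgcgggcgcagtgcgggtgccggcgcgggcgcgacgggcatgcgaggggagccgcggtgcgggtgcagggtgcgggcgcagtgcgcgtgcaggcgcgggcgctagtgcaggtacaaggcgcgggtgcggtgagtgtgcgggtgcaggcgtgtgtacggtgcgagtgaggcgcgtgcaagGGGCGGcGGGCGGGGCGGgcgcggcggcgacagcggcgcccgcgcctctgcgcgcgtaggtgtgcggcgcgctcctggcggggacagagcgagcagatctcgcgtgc
A match describes the letters of the window, and a missing match says only that these letters are not in it.

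Other genes of the pathway were taken from 5 lists. Among calmodulin genes and calmodulin-binding buffers, 3 of 7 were called lower and 0 higher, with a median log2 fold change of -0.43. Calm2 and Calm3, which encode calmodulin, were not called. Calm2 stood at 1384 ± 87.4 CPM in 6m against 1029 ± 53.1 at 24m (mean ± SD; log2 fold change -0.43 ± 0.09, edgeR adjusted p = 0.00211). Calm3 stood at 1478 ± 77.6 CPM against 1530 ± 214 (0.05 ± 0.11, edgeR adjusted p = 0.708). The genes called encode calmodulin-binding proteins with an IQ motif. Nrgn (neurogranin) fell from 3268 to 1838 CPM (log2 fold change -0.83 ± 0.11), Pcp4 from 646 to 294 CPM (-1.14 ± 0.13) and Gap43 from 251 to 165 CPM (-0.60 ± 0.08), with no overlap between ages. Pcp4l1, a relative of Pcp4, was at -0.08 ± 0.11 on the log2 scale (edgeR adjusted p = 0.565).

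Of 10 genes of other calmodulin-regulated kinases and Camk2n2, 3 were called higher and 1 lower, and the list median was -0.16. Cask, a scaffold kinase of presynaptic terminals, changed by 1.27 ± 0.26, and Camk1, the CaMKI alpha gene, by -0.58 ± 0.12 (edgeR adjusted p = 0.00218 and 0.00205). Camk1 and Camk1d, both of the CaMKI group, were thus called in opposite directions. Of 8 genes of calcineurin and of phosphatases that remove phosphate from CaM kinases, 6 were called higher and 0 lower, and the list median was 0.80. Ppm1e and Ppm1f, the CaM kinase phosphatases, changed by 2.64 ± 0.38 and 1.43 ± 0.09, and Ppp3ca, a catalytic subunit of calcineurin, by 0.69 ± 0.21 with overlap between ages. The lowest called value of that list was 0.63 ± 0.16, in Rcan2, a regulator of calcineurin.

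Synaptic partners and substrates of CaMKII were called higher in 9 of 11 genes and lower in 0, and the list median was 1.15. Those called ranged from Grin2a, an NMDA receptor subunit (2.22 ± 0.40), to Grin1, the obligatory NMDA receptor subunit (0.61 ± 0.08). Grin2b, the NMDA receptor subunit to which active CaMKII docks, had 0.63 ± 0.30 (edgeR adjusted p = 0.0964), and the scaffold gene Dlg4 had 0.11 ± 0.09 (0.332). Of 13 genes of nuclear and metabolic targets of CaMKIV and the CaMKKs, a list that also held Stk11, 6 were called higher and 1 lower, and the list median was 0.57. Mef2a, a transcription factor of neuronal activity, had the largest value (2.86 ± 0.37), and the gene called lower was Stk11 (-0.81 ± 0.12), which encodes another upstream kinase of AMP-activated kinase and is not itself such a target. Over all tested genes the same test called 25.3% higher and 18.3% lower, and the median was -0.0034.

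**Figure D4:**
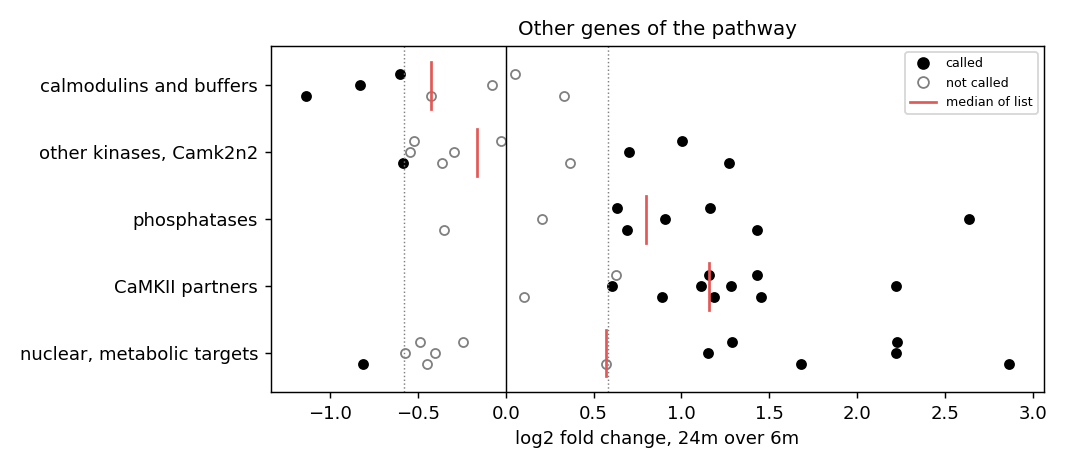
Log2 fold change of 24m over 6m (horizontal axis) of each gene in 5 lists of the pathway, filled where called, with the list median in red and dotted lines at -0.58 and 0.58. The phosphatases and the CaMKII partners hold no gene called lower, and the calmodulins and buffers hold none called higher.

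Markers of the cell types that make these kinases were summed in each library. No marker was at 0. Of 8 genes of all neurons, 1 was called higher and 1 lower, and their summed level was 5166 to 5419 CPM in 6m and 4805 to 5158 CPM in 24m. Of 7 genes of forebrain excitatory neurons, 3 were called higher and 0 lower, at 1438 to 1763 CPM in 6m and 1687 to 2108 CPM in 24m. Of 7 genes of cerebellar granule cells, 6 were called higher and 0 lower, at 183 to 282 CPM in 6m and 358 to 387 CPM in 24m. For inhibitory neurons, 2 of 6 genes were called higher and 2 lower (1392 to 1728 and 1129 to 1387 CPM). For striatal neurons, 2 of 6 were called higher and 0 lower (712 to 830 and 579 to 814 CPM). The sums overlapped between ages for forebrain excitatory and striatal neurons, were lower in all 24m libraries for all neurons and inhibitory neurons, and were higher in all of them for granule cells. The median log2 fold change over the genes of a list did not follow its sum in each case, with 0.03 for all neurons, 0.26 for inhibitory neurons, 0.27 for forebrain excitatory neurons, 0.05 for striatal neurons and 0.96 for granule cells. The lower inhibitory sum came from Pvalb and Sst, both called lower, while Gad1 and Gad2, which encode the enzymes that make GABA, were called higher.

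Among glial and vascular lists, astrocyte genes had 5 of 7 called higher and 1 lower, at 720 to 851 CPM in 6m and 1069 to 1226 CPM in 24m. Microglial genes had 2 of 7 called higher and 0 lower (419 to 450 and 428 to 578 CPM), and oligodendrocyte genes 1 of 6 and 0 (3282 to 4137 and 3540 to 4159 CPM). Endothelial genes had 1 of 6 called higher and 2 lower (73.3 to 108 and 43.9 to 65.8 CPM). Replicate 1 of 24m had the highest sum of the 24m libraries in 7 of the 9 lists and the lowest in the other two, granule cells (358 CPM) and endothelial cells (43.9 CPM). The part of cell composition in the changes of the kinase genes was not tested.

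Over the 8 libraries, the genes whose log2 CPM ran most like that of a member were sought among 8776 other genes whose mean reached 10 CPM. They were Sorcs2 and Acvr1b for Camk2a, Gpd1l and Tbc1d14 for Camk2b, Gzf1 and Pptc7 for Camk2d, and Dctn4 and Elavl1 for Camk2g. For the inhibitor Camk2n1 they were Hikeshi and Ap4s1, and for Camk1d they were Specc1 and Arnt2. For Camkk1 they were Lzts3 and Smim39, for Camkk2 Bcl2l2 and Mon1b, for Camk4 Fhip2b and Zfyve26, and for Camkv Elk1 and Got2. Pearson r was 0.984 to 1.00 over these 20 genes. Because both ages enter, these values describe mainly which genes shared the step between ages in the same libraries.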

How the data were processed

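The values are raw counts of each gene in each library, as deposited, which the authors made by adapter trimming with Trim Galore 0.4.11, alignment to GRCm39 with HISAT2 2.1.0 (versions from the submitters' processing notes) and featureCounts, from directional poly(A) libraries. Strand use and multimapping were not stated. No replicates were pooled. Of 22430 identifiers, 22281 matched GENCODE symbols on the same assembly, a later release than that used by the authors.

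Here, genes above 5 counts in 4 or more libraries were tested with edgeR 4.0.16 (R 4.3.3; glmQLFit, TMM factors, age only) and adjusted over all genes (Benjamini-Hochberg). The alternatives included DESeq2 1.42.0 and limma 3.58.1 (voom). The study used DESeq2 on quantile-normalized counts. Subunit ratios used counts plus 0.5 and exact permutation over 70 assignments. Lengths were unions of exons, and smooth length and GC trends were removed by an offset per library. Log2 CPM used a prior count of 2. No 2 replicates agreed within sampling noise (chi-square per degree of freedom of 8.17 or more over 12 pairs). Pairs with 24m replicate 1 stood at 181 to 424, and all other pairs at 8.17 to 61.4. On simulated data for 24m against 6m over 16659 genes, 81.5% of 200 genes given a log2 change of 1 were recovered, with 9 unchanged genes called.

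The members and lists were chosen with earlier results of these data known. Named genes were the members, the 2 genes most like each, the calmodulin list, and the called genes of each list with the largest and smallest change; Camk2n2, Ppp3ca, Ppm1f, Grin2b, Dlg4, Gad1, Gad2, Pvalb and Sst were added after their values were seen. The values of 1 gene of a list are not reported here.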

Additional observations from a re-analysis of the deposited data

How the results depend on the processing

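Over all alternatives run, 4 to 8 members were called higher and 1 lower, and in the 18 that refitted the data Camk2a, Camk2b, Camk2d, Camk1d and Camk2n1 were called each time. The count was 4 with the length trend removed, where Camkk1 and Camkk2 lost their call, 8 with library totals alone, quantile normalization with DESeq2, the GC trend removed or no fold-change threshold, 7 without 24m replicate 1 or 2, and 6 otherwise. Camkv was called with library totals alone (0.68), after quantile normalization (0.74) and with the GC trend removed (0.62), as was Camk2g (0.78, 0.68 and 0.59). Camk4 turned to -0.26 with the length trend removed (adjusted p = 0.0265) and to -0.047 with the GC trend removed (0.705), and its adjusted p was 0.000792 to 0.705 over its alternatives. The cause of these shifts was not tested. With library totals alone 1746 of all genes were called lower, against 3058, the share of called genes that were higher was 75.7% against 58.1%, and the median over all genes was 0.21 (log2). That share was 47.9% after quantile normalization, where the median was -0.10. Without the fold-change threshold 4999 genes were lower.

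The replicate numbers did not pair the libraries (correlation of same-numbered deviations 0.27, 0.14, 0.08 and -0.35, with 1 of 4 libraries of 24m closest to its own number). With the replicate number as a block, edgeR called 6 members higher and 1 lower, and 4112 and 3130 of all genes. For the subunit ratios the block left the differences at 1.26 (Camk2a over Camk2b), 0.83 (Camk2a over Camk2d), 1.93 (Camk2a over Camk2g), 0.67 (Camk2b over Camk2g) and 1.10 (Camk2d over Camk2g), with an adjusted exact p of 0.15, since sign changes of 4 pairs cannot reach 0.05. Leaving out each library in turn gave 0.97 to 1.32 for Camk2d over Camk2g, whose adjusted exact p was 0.0686 without any one of the 6m libraries, and -0.59 to -0.28 for Camk2b over Camk2d, which passed (exact adjusted p = 0.0286) without 24m replicate 1.

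With the length of the longest coding transcript in place of all exons, the share of Camk2a at 6m was 31.1%, that of Camk2d 1.46% at 6m and 1.50% at 24m, and that of Camk2g 32.0% and 15.3%. The ratio of Camk2n1 to summed kinase transcripts was then 2.34 in 6m and 0.359 in 24m. With all exons, leaving out each library in turn gave 4.61 to 5.12 in 6m and 0.613 to 0.740 in 24m. Both alternatives for this ratio were chosen after seeing the data.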
